A study of Homo sapiens with 2 samples.

Results

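Nuclear receptors are transcription factors that bind DNA through a zinc-finger domain and, in most members, a small lipid-soluble ligand through a second domain. Many of them pair with a retinoid X receptor (RXR) on repeats of the hexamer AGGTCA, and ligand decides whether a coactivator or a corepressor is held. In hepatocytes the family is known for its control of bile acid, cholesterol and fatty acid metabolism and of the response to foreign compounds. Here 43 human nuclear receptor genes, a fixed list by family membership that leaves out the NR4A group, were followed in HepG2, an established human hepatoma cell line. The question was which of them the line expresses and how their transcripts differed after brief treatment with the isoquinoline alkaloid berberine.

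The berberine group was grown in 40 µM berberine chloride for 4 h, and the control group in 0.08% DMSO, the solvent, for the same 4 h. RNA from each was read on 1 Illumina HumanHT-12 v4 BeadChip, which gave 1 berberine array and 1 control array. Both carry replicate number 1 in their labels, no test between the groups was possible, and the differences are those between these 2 arrays, with no replicate to set them against. Total RNA of a culture was measured, so fewer cells that express a gene and less transcript per cell cannot be told apart.

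A probe counted as detected when its detection p, the share of negative-control values of the same array above it, was under 0.01. Of the 43 receptors, 37 had 78 probes in the platform annotation, and 18 of these 37 (48.6%) had a probe detected on both arrays, which are called measured here. Among all 20039 genes with a probe, 9128 (45.6%) were measured, so the receptors were detected about as often as genes in general. HNF4A, NR1H2, NR1H4, NR1I2, NR2F2 and NR0B1 had no probe in the annotation used and were not analysed here. Intensities are given as deposited, in arbitrary units and without background subtraction. Differences are log2 of berberine minus log2 of control after background correction and quantile normalization (neqc), and folds are taken from the same values unless the deposited normalized intensity is named, from which no background was subtracted.

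The berberine array was slightly brighter than the control array, with a median probe intensity of 130.1 against 120.6 and an estimated background of 121.5 against 112.5, and it detected 32.6% of probes against 32.5%. Of 21 hepatocyte markers 19 were measured, AFP and APOA1 among them, and none differed by over 1.5-fold. Of 36 markers of immune, endothelial, stromal and bile duct cells 11 were measured. SPP1, LYZ, EPCAM, ACTA2, CD68 and SOX9 were bright. Their intensities lay between 943 (SOX9) and 14114 (SPP1) in berberine-treated and between 908 (CD68) and 11550 (SPP1) in control cells. PTPRC, PECAM1, COL1A1 and KRT7 were not detected on either array. The bile duct marker KRT19 was detected on both, with 193 in berberine-treated and 188 in control cells. The endothelial marker LYVE1 was also detected on both, with 157 and 144. Of the 8 bile duct markers 4 were measured. The 4 measured immune markers, CD68, LYZ, AIF1 and FCGR3A, were all above 0 at their brightest detected probes. They lay between 0.06 and 0.45 on the log2 scale, with a median of 0.29. The other detected probe of CD68 gave -0.45 and that of LYZ 0.17. The part of these markers in the results was not tested. ESAM, an endothelial adhesion molecule, was the only 1 of the 11 past 1.5-fold, with 195 in berberine-treated and 144 in control cells (1.82-fold higher, 1.26-fold in the deposited values). As a partial error, the differences of pairs of detected probes of the same gene gave an SD of a single probe of 0.25 over 2193 genes. It was 0.31 where the dimmer probe had a background-corrected log2 level under 7, 0.22 between 7 and 9, and 0.16 from 9 upwards. This SD does not cover the spread between cultures.

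Among the 18 measured receptors, NR0B2 and HNF4G were over 1.5-fold higher in berberine-treated cells, and RARA and PPARD were over 1.5-fold lower. The 2 higher receptors are 11.1% of those measured, against 3.87% of all measured genes that were over 1.5-fold higher, and the 2 lower receptors are likewise 11.1%, against 4.09% of all measured genes. These are counts of 2. The other 14 receptors lay between -0.43 and 0.50 on the log2 scale. The median over the 18 was -0.00, against -0.01 over all measured genes, with 9 receptors above and 9 below 0. In the deposited normalized intensity NR0B2 alone passed 1.5-fold, 1 receptor (5.56%) against 1.44% of all measured genes, and 0 receptors were over 1.5-fold lower, against 1.01%.

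**Figure D1:**
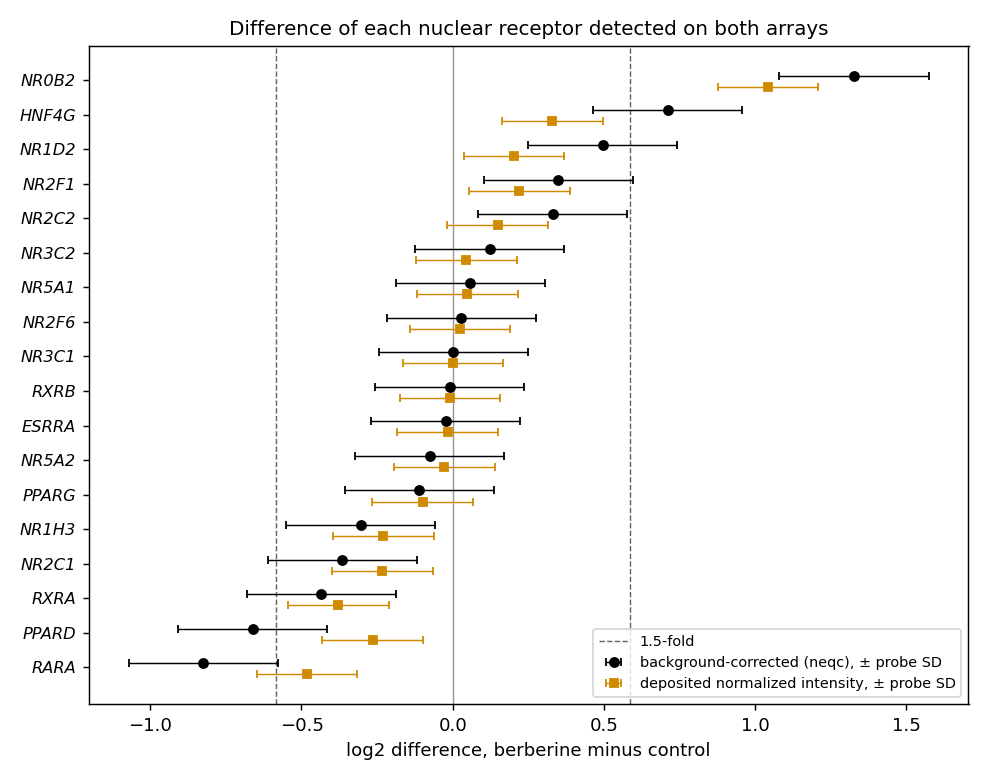
Log2 difference (berberine minus control, x axis) of the 18 nuclear receptors detected on both arrays, as background-corrected values (circles) and as deposited normalized intensity (squares). Bars are 1 SD of a single probe over all probe pairs, whatever the level, and dashed lines mark 1.5-fold. NR0B2 lies outside the lines in both kinds of value, at 1.33 and 1.04, whereas HNF4G, PPARD and RARA lie outside in the background-corrected values only.

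NR0B2 encodes SHP, a receptor without a DNA-binding domain that represses other nuclear receptors and is best known for lowering bile acid synthesis. It had an intensity of 743 on the berberine array and 338 on the control array, both far above the lowest detected intensities of 151.5 and 141.6. The berberine value was 2.51-fold higher, with a log2 difference of 1.33, which is 5.38 times the SD of a single probe over all pairs. Only 44 of the 9128 measured genes had a larger difference. In the deposited normalized intensity the values were 729 and 354, and NR0B2 was 2.06-fold higher. NR0B2 lies on chr1:26911489-26913975 (GRCh38.p14, RefSeq) and has 1 probe on the array, so no second probe could be compared.

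HNF4G, a close relative of the hepatocyte regulator HNF4A, had an intensity of 219 in berberine-treated and 164 in control cells. It was 1.64-fold higher, with a log2 difference of 0.71, and 221 genes had a larger one. The control value was close to the lowest detected intensity of that array, and in the deposited normalized intensity HNF4G was 1.26-fold higher. HNF4G also has 1 probe. Its background-corrected log2 levels were 6.81 in berberine-treated and 6.10 in control cells, under 7, where the SD of a single probe was 0.31.

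RARA, the alpha receptor for retinoic acid and a partner of RXR, had an intensity of 209 in berberine-treated and 273 in control cells. It was 1.77-fold lower, with a log2 difference of -0.82, and 121 of the measured genes had a lower one. In the deposited normalized intensity it was 1.40-fold lower. RARA has 3 probes, and the other 2 were not detected on either array, with intensities of 126 and 117 in berberine-treated and 116 and 114 in control cells. The decrease therefore rests on 1 probe.

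PPARD, the fatty acid receptor of the peroxisome proliferator-activated group that is expressed in most tissues, had an intensity of 161 in berberine-treated and 181 in control cells. It was 1.58-fold lower, with a log2 difference of -0.66, and 257 genes had a lower one. On the deposited scale it was 1.20-fold lower. The berberine value was close to the lowest detected intensity of that array, and the other 2 PPARD probes were not detected on either array. The background-corrected log2 levels were 5.76 in berberine-treated and 6.42 in control cells, under 7, where the SD of a single probe was 0.31.

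To show the sequence before the starts of the receptors past 1.5-fold that the table held, and of NR1D2, which lay within 1.5-fold and is shown for its CACGTG matches, the RefSeq promoter table (GRCh38.p14) was searched over the 250 bases before each start for AGGTCA, the core site of the family, and, chosen after the values were seen, for CACGTG, the E-box of the clock proteins CLOCK, NPAS2 and BMAL1. Both strands were read, and CACGTG is its own reverse complement. The table held 93 starts of 39 of the 43 genes. It held no start of NR0B2 or HNF4G, so these were not searched. AGGTCA was found at 15 of the 93 starts (16.1%) against 12.1% of all 35116 starts, and CACGTG at 6 (6.45%) against 6.34%, and no test was run on these shares. RARA was among 11 receptors with an AGGTCA, and NR1D2, described below, was among 5 with a CACGTG. The 250 bases before 1 of the 3 RARA starts (chr17:40308930-40309179, plus strand), before the PPARD start (chr6:35342308-35342557, plus strand) and before 1 of the 2 NR1D2 starts (chr3:23945871-23946120, plus strand) follow, with the matches in capitals. AGGTCA begins 230 bases before the RARA start, CACGTG 155 and 105 bases before the NR1D2 start, and PPARD has no AGGTCA in this window. A match describes the letters and says nothing of binding.
RARA: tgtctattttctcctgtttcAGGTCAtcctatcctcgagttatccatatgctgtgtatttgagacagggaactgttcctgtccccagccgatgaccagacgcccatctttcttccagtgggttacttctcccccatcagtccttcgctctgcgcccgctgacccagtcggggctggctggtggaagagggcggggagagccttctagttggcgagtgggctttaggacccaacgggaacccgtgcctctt
PPARD: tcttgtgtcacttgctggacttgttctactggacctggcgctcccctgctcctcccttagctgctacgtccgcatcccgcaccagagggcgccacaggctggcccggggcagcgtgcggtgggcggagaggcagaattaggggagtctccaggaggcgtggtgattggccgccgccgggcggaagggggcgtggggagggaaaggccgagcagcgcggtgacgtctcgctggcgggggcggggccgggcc
NR1D2: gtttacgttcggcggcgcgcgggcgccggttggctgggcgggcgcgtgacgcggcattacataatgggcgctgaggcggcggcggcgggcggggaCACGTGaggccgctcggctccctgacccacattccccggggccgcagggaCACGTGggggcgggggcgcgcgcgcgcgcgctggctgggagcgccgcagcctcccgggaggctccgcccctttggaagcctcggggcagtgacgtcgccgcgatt

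Among the partners that other receptors share, RXRA had an intensity of 729 in berberine-treated and 894 in control cells. It was 1.35-fold lower, with a log2 difference of -0.43, and 1.30-fold lower in the deposited values. The log2 difference was below the 1.5-fold threshold but 1.76 times the SD of a single probe over all pairs. RXRB, which has the same role, had 455 and 429, with a log2 difference of -0.01 after normalization. RXRG was not detected on either array.

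NR1H3 and PPARG, the other measured receptors of the LXR and PPAR lipid sensors, stayed within 1.5-fold. NR1H3, the oxysterol receptor LXR alpha, had 418 in berberine-treated and 462 in control cells, with a log2 difference of -0.30. PPARG, the regulator of fat storage and target of the glitazone drugs, had 797 and 796 at its brightest probe, and its second detected probe had 333 and 358. Their log2 differences were -0.11 and -0.26, so both PPARG probes were slightly lower. No PPARA probe reached the detection threshold, with 139 in berberine-treated and 121 in control cells at the probe of lowest detection p, 0.0390 on the berberine array.

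Of the REV-ERB and ROR receptors, which repress and activate clock genes at the same sites, NR1D2 alone was measured. This gene of REV-ERB beta had 191 in berberine-treated and 155 in control cells, with a log2 difference of 0.50 (1.41-fold higher), 485 genes having a larger one. In the deposited values the fold was 1.15. NR1D1, the gene of REV-ERB alpha, had 144 and 123 and was not detected, with detection p-values of 0.0247 and 0.0987. NR1D1 and THRA overlap at their ends on opposite strands of chromosome 17, and where their probes lie was not analysed here. RORA, with 8 probes, and RORB were not detected on either array.

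Among orphan receptors, whose ligands are unknown or disputed, NR2F6 had the values 1626 in berberine-treated and 1490 in control cells and a log2 difference of 0.03. NR2F1, COUP-TF1, had 311 and 252, with a log2 difference of 0.35. NR2C1, the testicular receptor TR2, had 4 detected probes, and their log2 differences were -0.37, -0.03, -0.02 and 0.02, so the probe used for the gene stood apart from the other 3. NR2C2, its relative TR4, had 203 and 172 and a log2 difference of 0.33, while its second probe, detected on the control array only, gave -0.29. The probes of NR2C1 and of NR2C2 thus did not all run in 1 direction.

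ESRRA, which drives genes of mitochondrial energy metabolism together with the coactivator PGC-1 alpha, had 384 in berberine-treated and 367 in control cells and a log2 difference of -0.02. NR5A2, the liver receptor homolog LRH-1 that activates bile acid synthesis genes and is repressed by SHP, was near the detection limit, with 163 and 155 at the brighter and 159 and 145 at the other detected probe. The log2 differences of these NR5A2 probes were -0.08 and 0.12. NR5A1, known as the steroidogenic factor SF-1 of adrenal and gonad, was detected at 539 and 491, with a log2 difference of 0.06, by its only probe. No second NR5A1 probe could be compared, and whether this probe reads the NR5A1 transcript alone was not tested.

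Of the steroid receptors, NR3C1, the glucocorticoid receptor, had 162 in berberine-treated and 151 in control cells, and NR3C2, the mineralocorticoid receptor, had 172 and 156. Their log2 differences were 0.00 and 0.12, within 1 SD of a single probe. NR3C1 has 3 probes, of which 1 was detected. ESR1, ESR2 and PGR, the receptors for estrogen and progesterone, were not detected on either array.

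**Figure D2:**
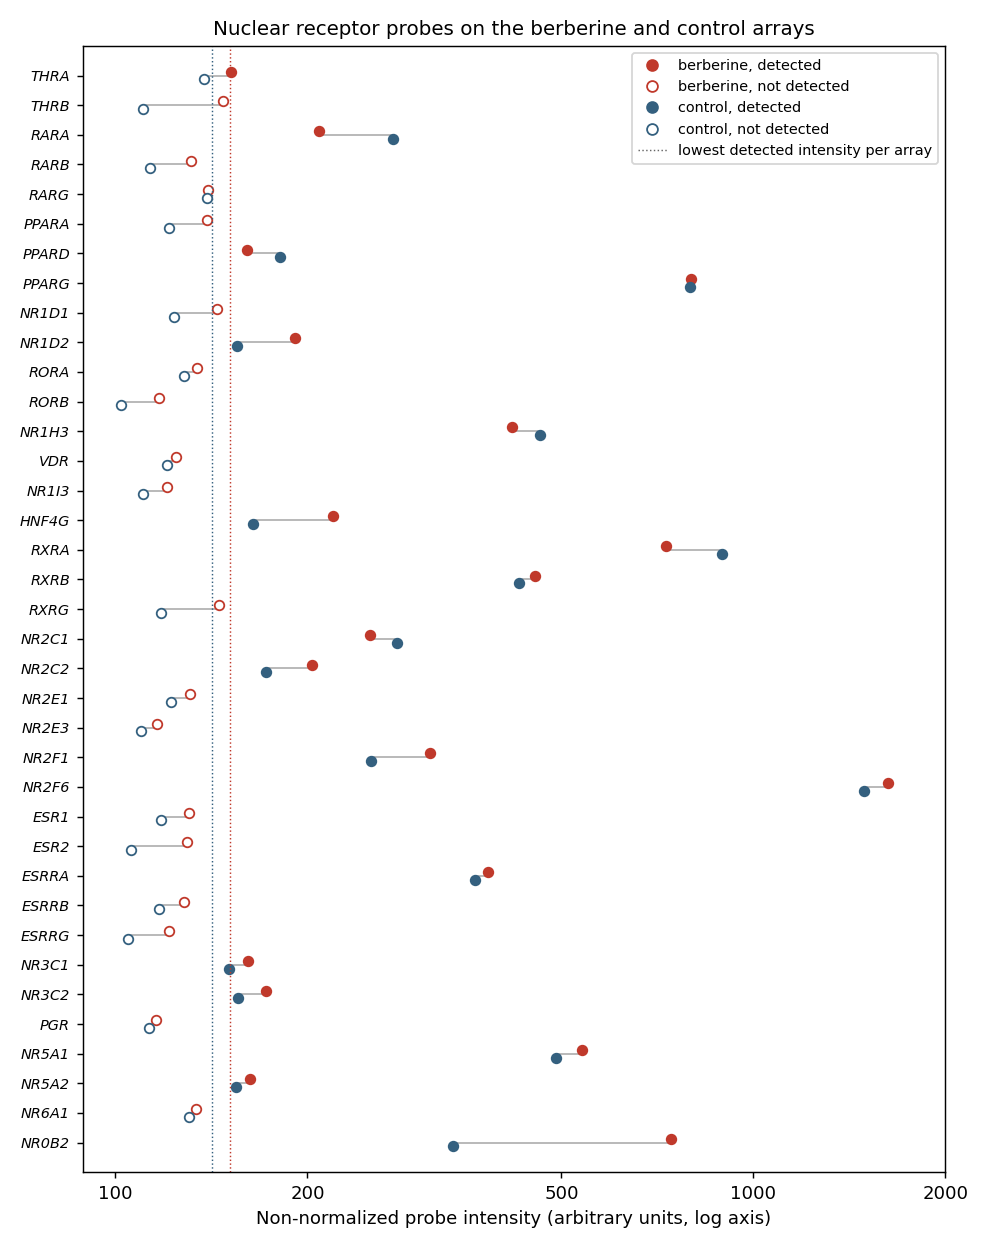
Non-normalized intensity (x axis, log scale, arbitrary units) of 1 probe per receptor for the 37 receptors with a probe, the detected or else the brightest one, on the berberine array (red, drawn above) and the control array (blue), with filled points for detection and dotted lines at the lowest detected intensity of each array. Intensities are comparable within a row and not between probes, and NR0B2 shows the widest gap among the filled pairs, 743 against 338.

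THRA, the alpha receptor of thyroid hormone, was detected on the berberine array only, with an intensity of 152 in berberine-treated and 138 in control cells and detection p-values of 0.00909 and 0.0143. These detection p-values lie close together on both sides of the threshold, and the bound on the fold was under 1, so no fold is given. The remaining 18 receptors, with 40 probes, were detected on neither array. Besides those named above they were THRB, RARB, RARG, VDR, NR1I3, NR2E1, NR2E3, ESRRB, ESRRG and NR6A1. Their probes ranged between 111 and 147 on the berberine array and between 96.2 and 139 on the control array. Among those closest to the threshold, THRB had 147 and 111 with detection p-values of 0.0156 and 0.553, and RARG had 139.8 and 139.2, with detection p-values of 0.0390 and 0.0143. VDR, the vitamin D receptor, had 131 and 113 at its probe of higher berberine intensity, and NR1I3, the xenobiotic receptor CAR, had 124 and 105. These transcripts were not detectable with these probes at this background, which does not show that they are absent.

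**Figure D3:**
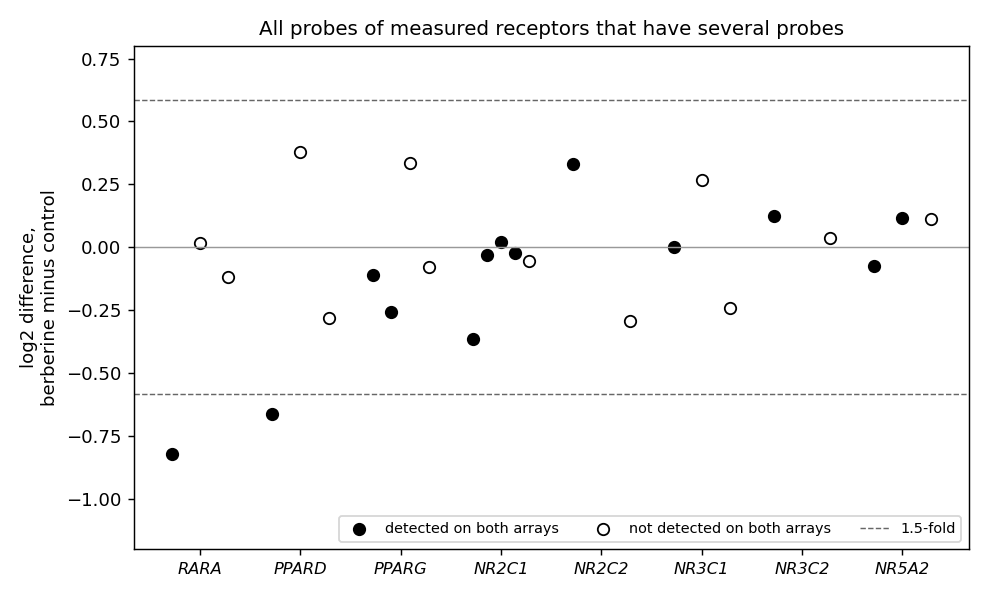
Log2 difference (berberine minus control, y axis) of every probe of the 8 measured receptors that have more than 1 probe, filled where the probe was detected on both arrays and open where it was not, with dashed lines at 1.5-fold. Only the detected probes of RARA and PPARD pass the line, at -0.82 and -0.66, and the 4 detected NR2C1 probes run between -0.37 and 0.02.

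To see what else in the receptor pathways differed, 15 lists of target genes, coregulators and chaperones were read on the same arrays. Of their 173 genes 105 were measured, and 8 (7.62%) were over 1.5-fold higher and 4 (3.81%) lower, against 3.87% and 4.09% of all measured genes, with a median log2 difference of 0.01. In the deposited normalized intensity 6 (5.71%) were higher and 1 (0.952%) lower, against 1.44% and 1.01%. The lists were chosen with earlier results of these data known.

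NR0B2 is itself a target of the bile acid receptor FXR (NR1H4), and of 12 other FXR targets 5 were measured. None of the 5 passed 1.5-fold, and all lay below 0 at their brightest probes, with a median of -0.06. Some were close to 0, C3 at -0.01 and FGB at -0.04, and the other detected FGB probe gave 0.14. SLC51A, a subunit of the bile acid exporter, had 202 in berberine-treated and 230 in control cells and a log2 difference of -0.51. ABCB4, the phospholipid exporter of bile, was detected on the control array only, with 144 against 171, and was at least 1.68-fold lower in berberine-treated cells (at least 1.21-fold on the deposited scale). That bound is taken against the higher of the dim value and the lowest detected value of its array. SLC51B, the second subunit of the exporter, was detected on the berberine array only, at 159 against 136. Its bound was 1.15-fold higher, or 1.05-fold on the deposited scale. FETUB was also detected on the berberine array only, at 156 against 134, with a bound of 1.08-fold higher, or 1.03-fold on the deposited scale. These bounds compare single values and include no error, so bounds this close to 1 do not establish an increase. FGF19 and ABCB11 were not detected on either array.

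Of 12 genes of bile acid synthesis, the pathway that LRH-1 activates and SHP represses, 7 were measured and 0 passed 1.5-fold, with a median of -0.08. AKR1D1, a reductase of the pathway, had the lowest value, 8241 in berberine-treated and 10120 in control cells, with a log2 difference of -0.43. CYP27A1, which starts the alternative route, had 0.11. CYP7A1, the rate-limiting enzyme, and CYP8B1 were not detected on either array, so these known targets of SHP gave no measured difference.

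All 12 measured HNF4A targets lay within 1.5-fold, with a median of -0.00, PKLR the highest at 0.37 and F12 the lowest at -0.32. The 9 measured LXR targets had a median of -0.01, with SMPDL3A at 0.52 and the cholesterol exporter ABCA1 at -0.36. The 11 measured PPARA targets had a median of -0.07, with SLC25A20, the carnitine carrier, at -0.51 and EHHADH at 0.19. Among 8 measured ESRRA targets CYCS, the cytochrome c gene, had 234 in berberine-treated and 296 in control cells and passed the threshold, with a log2 difference of -0.68 (1.34-fold lower in the deposited values), and the rest were within 1.5-fold.

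Of the PXR and CAR targets, 6 of 14 were measured and GADD45B alone passed, 4.09-fold higher with 372 in berberine-treated and 160 in control cells (2.19-fold on the deposited scale). GADD45B encodes a protein of the stress response. The drug-metabolizing enzymes CYP3A4 and CYP2B6 were not detected on either array. The drug exporters ABCB1 and ABCC2 had log2 differences of 0.19 and 0.12 at their brightest probes. The other detected ABCB1 probe gave -0.30, so the 2 ABCB1 probes ran in opposite directions.

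Targets of the glucocorticoid receptor had the highest median of the lists with at least 3 measured members, 0.58 over 8 genes against -0.01 over all genes, and 4 of the 8 were over 1.5-fold higher and 0 lower, against 3.87% and 4.09% of all measured genes. DUSP1, a phosphatase of MAP kinases, had 1439 in berberine-treated and 389 in control cells (4.29-fold higher), and ERRFI1, an inhibitor of the EGF receptor, had 9351 and 2922 (3.05-fold higher). MT2A, which belongs to the metallothionein family of closely similar genes, so that its probe may read relatives too, had 18776 and 8353 (2.10-fold higher). CEBPD had 969 and 641 and lay just past the threshold, with a log2 difference of 0.59, and NFKBIA lay just inside it at 0.57. In the deposited values CEBPD was 1.42-fold higher, and 3 genes passed. Among the other measured members FKBP5 had a log2 difference of 0.04, ANGPTL4 of -0.07 and SGK1 of -0.34. TSC22D3, PER1, TAT, ZBTB16, KLF9 and PCK1 were not detected on either array.

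Circadian genes around the REV-ERB and ROR receptors went both ways. Of 16, 8 were measured, 2 were over 1.5-fold higher and 3 lower, against 3.87% and 4.09% of all measured genes, and their median was -0.04. BHLHE40, a repressor that binds E-boxes, had 2178 in berberine-treated and 1195 in control cells (1.75-fold higher), and NFIL3, a repressor that REV-ERB proteins control, had 939 and 560 (1.72-fold higher). PER2, a repressor of the clock, had 352 and 509 (1.75-fold lower), and NPAS2 had 202 and 255 (1.70-fold lower). CLOCK, the partner of BMAL1, was named after its value was seen and had 209 and 252 (1.55-fold lower). In the deposited values 2 were higher and PER2 alone was lower, against 1.44% and 1.01% of all measured genes. CRY1, a partner of PER2, had a log2 difference of -0.05 at its brightest probe and 0.73 at its other detected probe. BMAL1 was detected on the berberine array only, at 157 against 127. Its bound was 1.11-fold higher, or 1.035-fold on the deposited scale, with no error included.

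Targets of the retinoic acid receptors, thyroid hormone receptors and VDR were mostly not detected. Of the RAR and retinoid list, 4 of 12 were measured and none passed 1.5-fold, with RDH10 at 0.31, TGM2 at 0.28 and DHRS3 at -0.20, and CYP26A1, the retinoic acid hydroxylase, was not detected. DIO1 was the only measured thyroid hormone target, at -0.02 at its brightest probe and -0.18 and 0.27 at its other detected probes. CYP24A1, the vitamin D hydroxylase, was the only measured VDR target, at 0.48 with 365 in berberine-treated and 276 in control cells.

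Coregulators and chaperones act together with the receptors. The 11 measured coactivators had a median of 0.16, and PPARGC1A, the gene of PGC-1 alpha, was 1.54-fold higher with 350 in berberine-treated and 250.2 in control cells, or 1.32-fold in the deposited values. EP300 had a log2 difference of 0.48 and NCOA1 of 0.35, and 0 coactivators were over 1.5-fold lower. The 9 measured corepressors had a median of -0.02, with TBL1XR1 at 0.53 and its relative TBL1X at -0.38. These values rest on the brightest probe of each gene, and other detected probes of 2 corepressors passed 1.5-fold. CNOT1 had -0.14 at the brightest and 0.84 at its other detected probe, and LCOR had -0.02 at the brightest and 0.42 and 0.69 at the others. All 9 chaperones of steroid receptors were measured and lay between -0.28 (DNAJB1) and 0.27 (PTGES3) at their brightest probes. HSPA8 had -0.21 at the brightest and -0.37 at its other detected probe, and HSP90AA1 had 0.17 and -0.07.

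**Figure D4:**
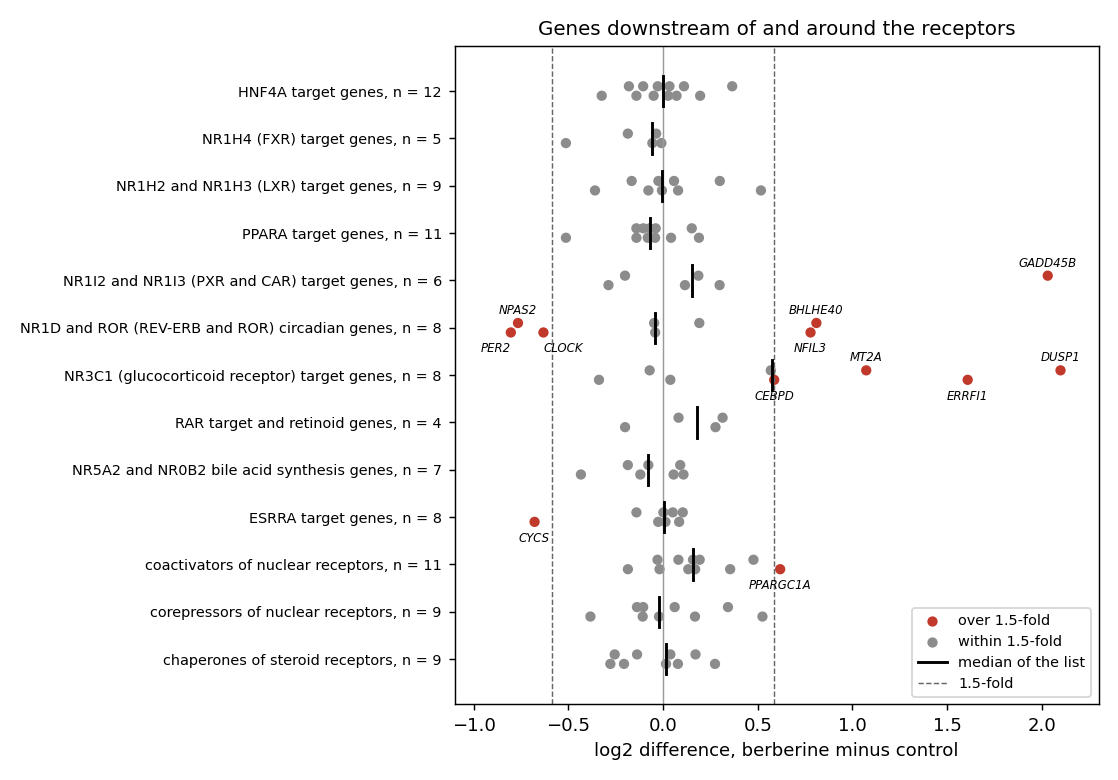
Log2 difference (berberine minus control, x axis) of measured genes in each list of receptor targets, coregulators and chaperones with at least 3 measured genes (rows, with n), red over 1.5-fold and grey within it, with a black line at the median and dashed lines at 1.5-fold. The glucocorticoid receptor list is shifted to a median of 0.58, the circadian list has genes outside both dashed lines, and most other lists lie between them.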

How the data were processed

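The labels name a Roche column kit for RNA isolation, whereas the methods of the study name TRIZOL, and biotin-labelled cRNA was made with Ambion reagents. The submitters' processing notes name GenomeStudio. The authors deposited non-normalized probe intensity with a detection p-value per probe, a multiple of 1 in 770, and normalized intensity, not on a log scale, whose columns share nearly the same sorted values (differences of at most 0.103%), which is what quantile normalization gives. The method is not given in the sources used here. Main values were computed with neqc of limma 3.58.1 (R 4.3.3), with normexp background from the detection p-values, an offset of 16, quantile normalization and log2. Background correction widens the folds of dim probes. Of 47231 probes, 30113 had 1 gene symbol, updated through Entrez identifier (30074) or accession (18) with RefSeq of GRCh38.p14.

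A gene took the value of its brightest probe with a detection p under 0.01 on both arrays. The fold threshold of 1.5 is that of the study, and no test was run. The members and lists were chosen with earlier results of these data known. All receptors are named. Of a list, up to 4 genes with the largest absolute difference were eligible, and any gene on 1 array only with a bound over 1.5-fold. Other list genes named, measured, on 1 array only or not detected, were chosen after their values were seen. The steps were tested on simulated data (Python 3.11.15, pandas 2.3.3, numpy 2.4.6). A protein comparison planned for the receptors was not made here, since no protein table was used.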

Additional observations from a re-analysis of the deposited data

How the results depend on the processing

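All alternatives were planned. The number of receptors over 1.5-fold higher was 2. It was 1 (NR0B2) in the deposited normalized intensity, with no background correction, with an offset of 50 and at a threshold of 2-fold, 5 at the lower fold threshold tried (NR1D2, NR2C2 and NR2F1 added), and 4 with no filter on dim probes, where THRB and RXRG, not detected on either array, were added. The number over 1.5-fold lower was 2. It was 0 in the deposited values, with no background correction and at 2-fold, 1 (RARA) with an offset of 50, and 4 at the lower fold threshold (NR2C1 and RXRA added). Over all genes the counts of 353 higher and 373 lower became 131 and 92 in the deposited values and with no background correction, 213 and 218 with an offset of 50, and 671 and 671 with no filter. With detection p under 0.05, 20 receptors were detected on both arrays and 26 on at least 1, against 18 and 19. Of 144 values of single receptors under the alternatives, 133 moved less than 1 probe SD. This tally is no measure of stability, since 15 of the 18 receptors have 1 detected probe. For these, alternatives in the detection limit or the choice of probe gave the same value. NR0B2, HNF4G, RARA, PPARD and NR1D2 moved more in the deposited values and with no background correction, and NR2C1 with the mean of probes. The differences of RXRB, NR3C1 and NR5A2, at most 0.08 in size, changed sign under 1 alternative each. NR0B2 ranged between 1.04 and 1.34, HNF4G between 0.33 and 0.71, RARA between -0.83 and -0.47, and PPARD between -0.67 and -0.26. Both counts kept the same receptors with detection p under 0.05 on both arrays, median centring, the mean of probes and the probe of lowest detection p. However, NR0B2, HNF4G, RARA and PPARD each have 1 detected probe. Of these settings only median centring could change their values, so the others were no check on them. No paired analysis was possible because each group has 1 array, and for the same reason no replicate could be left out. The number of arrays and the signal over background limit the precision.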
